A study of Homo sapiens with 4 samples.

Results

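The genes described here are EFNA5, ATP10A, MAML2, MACROD2 and LPP, the 5 protein-coding genes with the most H3K27Ac-covered length in control MOLM13 cells among genes where none of that length was covered following SNDX-50469 treatment. MOLM13 is an AML line of human origin that carries MLL1-r, and SNDX-50469 is an inhibitor of Menin, the cofactor that brings MLL1 and its fusion proteins to chromatin. The control library came from MOLM13 cells whose treatment label is None (the treatment description names a DMSO arm), and the other library from the same line after 16 h with 500 nM of SNDX-50469. ChIPmentation, a ChIP-Seq variant that tags the immunoprecipitated chromatin with Tn5 transposase, was used for H3K27Ac, and each library has its own deposited broad peak list on hg38. There was 1 library per condition, so differences are given without a replicate check and without a test, and the depth is unknown because read totals were not given.

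The 5 genes were selected on the measure that is described. The covered length of a gene is the number of positions under a peak from 5 kb before a gene to 5 kb after it, and a control position was kept when a SNDX-50469 peak also covered it. Of the 20037 protein-coding genes of the annotation, 15634 had a control peak, and 6998 of these, or 44.8%, had none of the control covered length kept. The 5 genes are the first of these 6998 by control covered length. LPP, the last one inside, had 65975 bp of control coverage, and ITGB5, the first one outside, had 59259 bp. SNX18 with 56417 bp, LDLRAD3 with 54553 bp, ADAMTS14 with 53896 bp and MPRIP with 48930 bp came next.

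H3K27Ac is deposited mainly by the acetyltransferases CBP and p300 and marks active promoters and enhancers. Inside long genes it is found at active starts and at enhancers that lie in introns. The 5 genes have unrelated products. EFNA5 encodes ephrin-A5, a membrane-anchored ligand of Eph receptor tyrosine kinases that acts between touching cells. ATP10A encodes a P4-ATPase, a flippase that moves phospholipids to the inner leaflet of the plasma membrane. MAML2 encodes a mastermind-like coactivator that joins the Notch intracellular domain and RBPJ on DNA, MACROD2 a hydrolase that removes mono-ADP-ribose from proteins, and LPP a LIM-domain protein of the zyxin family at focal adhesions. MAML2 and LPP are both also known as fusion partners of MLL1 in leukemia.

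In the control list the 5 genes held 458 peaks that covered 419174 bp. In the SNDX-50469 list they held 21 peaks that covered 4091 bp, which is 0.976% of the control length. The whole SNDX-50469 list was also smaller, with 54061 peaks over 29.4 Mb, beside 245875 peaks over 224 Mb in control. Of all control peaks, 8.24% shared a position with a SNDX-50469 peak. None of the 21 shared a position with a control peak, which the selection required, while 43% of the whole SNDX-50469 list shared none. The absence of coverage therefore concerns positions covered in control, and in the stricter sense of no peak at all it held for EFNA5 and MAML2. ATP10A held 2 SNDX-50469 peaks, LPP 1 and MACROD2 18. Of all 15634 genes with a control peak, 5568, or 35.6%, had no SNDX-50469 peak in the same window.

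**Figure D1:**
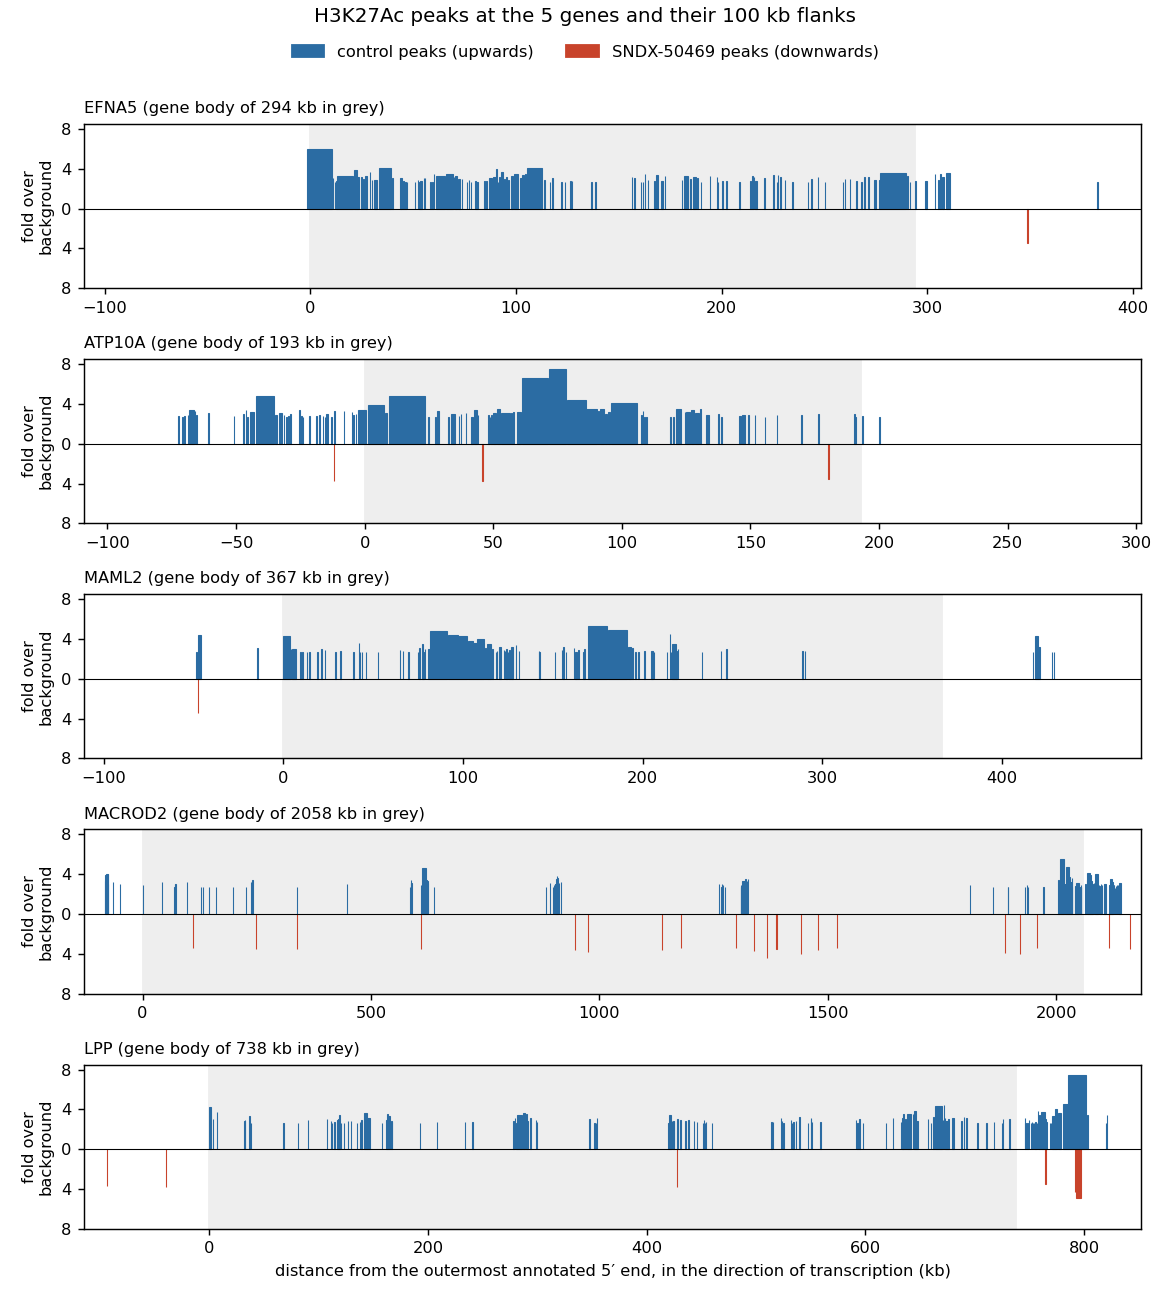
H3K27Ac peaks at the 5 genes, with the distance from the outermost annotated 5′ end in kb on the horizontal axis and the fold of each peak over the background of its own library on the vertical axis; control peaks point up in blue, SNDX-50469 peaks point down in red, the gene body is grey, and the narrowest peaks are drawn wider than to scale by the line width. The broad control peaks of EFNA5 lie at the start, within the first 113 kb and at the 3′ end. Those of ATP10A and MAML2 lie in the first 3 of 4 equal parts. In MACROD2 they lie near the 3′ end and also farther inside, such as at 613 to 621 kb. The 21 SNDX-50469 peaks inside the windows are short and lie mainly in MACROD2.

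EFNA5 (chr5:107376894-107670937, minus strand, 294044 bp) had 117 control peaks that covered 100428 bp, or 33.0% of its window, and no SNDX-50469 peak. Its peaks were 76 to 12627 bp wide with a median of 310 bp. The peak with the highest −log10 q, 7.42, was 11939 bp wide with a fold of 5.97 over the background of its library, and it lay over the start of the gene, from -1.49 kb to 10.5 kb relative to it. Coverage leaned to the 5′ side. With the gene body divided into 4 equal parts from 5′ to 3′, the first part held 44529 bp or 45.3% of the covered length, the second 22775 bp, the third 11663 bp and the fourth 19352 bp. When control peaks within 12.5 kb were joined, 66 of the peaks and 68.5% of the covered length fell into 1 cluster that ran from the start region to 139 kb inside the gene. The widest peak, of 12627 bp, was at the other end, 277 to 290 kb from the start, with a fold of 3.6 and a −log10 q of 2.58. Of its 8 peaks of at least 2 kb this was the only one in the 3′ part, and the other 7 lay within 113 kb of the start.

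ATP10A (chr15:25672237-25865088, minus strand, 192852 bp) was the most densely covered of the 5. Its 62 control peaks covered 93727 bp, or 46.2% of the window, with widths from 82 to 13989 bp and a median of 398 bp. The second part of the gene body was 84.9% covered, the first 54.9%, the third 39.8% and the fourth 7.86%. A single cluster of 59 peaks spanned 181 kb and held 99.0% of the covered length. The strongest control peak of all 5 genes lay here, inside the gene body, at chr15:25786922-25793365, which is 71.7 to 78.2 kb from the outermost 5′ end. It was 6444 bp wide with a fold of 7.55 and a −log10 q of 10.6, and it ranked 1617 by −log10 p among the 245875 control peaks. The next one, chr15:25793702-25803847, adjoined it on the 5′ side with 10146 bp, a fold of 6.65 and a −log10 q of 8.62. The strongest coverage of ATP10A was therefore intragenic, and the peak over its RefSeq start was weaker, with 6071 bp, a fold of 3.87 and a −log10 q of 3.1. Both SNDX-50469 peaks were short, 260 bp at 180 kb and 133 bp at 45.8 kb from the 5′ end, and lay 3557 and 1608 bp from the nearest control peak.

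MAML2 (chr11:95976598-96343195, minus strand, 366598 bp) had 79 control peaks over 84585 bp, or 22.5% of its window, and no SNDX-50469 peak. The widths were 78 to 10968 bp, with a median of 323 bp. Its broad peaks stood in 3 blocks. One was at the start, where a 3748 bp peak ran from -4 to 3744 bp relative to it, with a fold of 4.3 and a −log10 q of 3.75. The next lay 81.9 to 112 kb inside and held 5 peaks of over 2 kb, of which the widest, 9289 bp, had a −log10 q of 4.74. The last was a pair of adjoining peaks at 169 to 191 kb, of 10968 bp with a −log10 q of 5.99 and of 10513 bp with a −log10 q of 5.1. The second part of the gene body held 51.5% of the covered length and the fourth 0.414%. The 3′ part of MAML2 was nearly free of control peaks.

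MACROD2 (chr20:13995516-16053197, plus strand) is the longest of the 5 at 2057682 bp, and its 84 control peaks covered 74459 bp, or 3.6% of its window. Its coverage leaned to the end opposite to that of EFNA5. The fourth part of the gene body held 49.7% of the covered length, and a cluster of 17 peaks at 2004 to 2055 kb alone held 47.1%. The strongest and widest peak, of 10457 bp with a fold of 5.52 and a −log10 q of 6.27, lay there at 2007 to 2017 kb. Farther inside, an 8375 bp peak at 613 to 621 kb had a −log10 q of 4.51 and fell in MACROD2-IT1, a noncoding transcript within the gene. The start itself was not under a peak. A 770 bp peak with a fold of 2.88 and a −log10 q of 1.45 began 111 bp inside, and the second RefSeq start, at 15196840, had no control peak within 10 kb.

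MACROD2 also held 18 of the 21 SNDX-50469 peaks, which covered 3517 bp, or 4.72% of its control covered length. They were 105 to 455 bp wide with −log10 q from 1.39 to 2.74, and 9 of them fell in the third part of the gene body, where the control list had 17 peaks. One of 209 bp lay in FLRT3, a protein-coding gene inside MACROD2 that had 97 bp of control coverage, none of it kept. Per Mb the window of MACROD2 had 40.6 control and 8.71 SNDX-50469 peaks. Over the 69 protein-coding genes of at least 1 Mb the medians were 6.73 and 1.54, and MACROD2 ranked 7 by control covered length and 8 by SNDX-50469 peaks per Mb. The SNDX-50469 peaks of these genes ranged from 0 to 112 per Mb.

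LPP (chr3:188153021-188890671, plus strand, 737651 bp) had 116 control peaks, almost as many as EFNA5, over 65975 bp or 8.82% of its window. They had widths of 75 to 6148 bp with a median of 301 bp, and their highest fold, 4.48, and highest −log10 q, 4.05, were the lowest such maxima of the 5 genes. The 6 peaks of at least 2 kb held 32.6% of the covered length in LPP, against 55.2% for EFNA5, 68.9% for ATP10A, 64.0% for MAML2 and 61.8% for MACROD2. Coverage was spread over 14 clusters, of which the largest, with 31 peaks at 619 to 732 kb, held 41.3%. The widest peak, chr3:188816641-188822788, of 6148 bp with a −log10 q of 3.93, was in that cluster, and the fourth part of the gene body held 44.9% of the covered length. The single SNDX-50469 peak was 181 bp wide at 428 kb and stood 60 bp from a control peak, the smallest such gap of the 21.

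**Figure D2:**
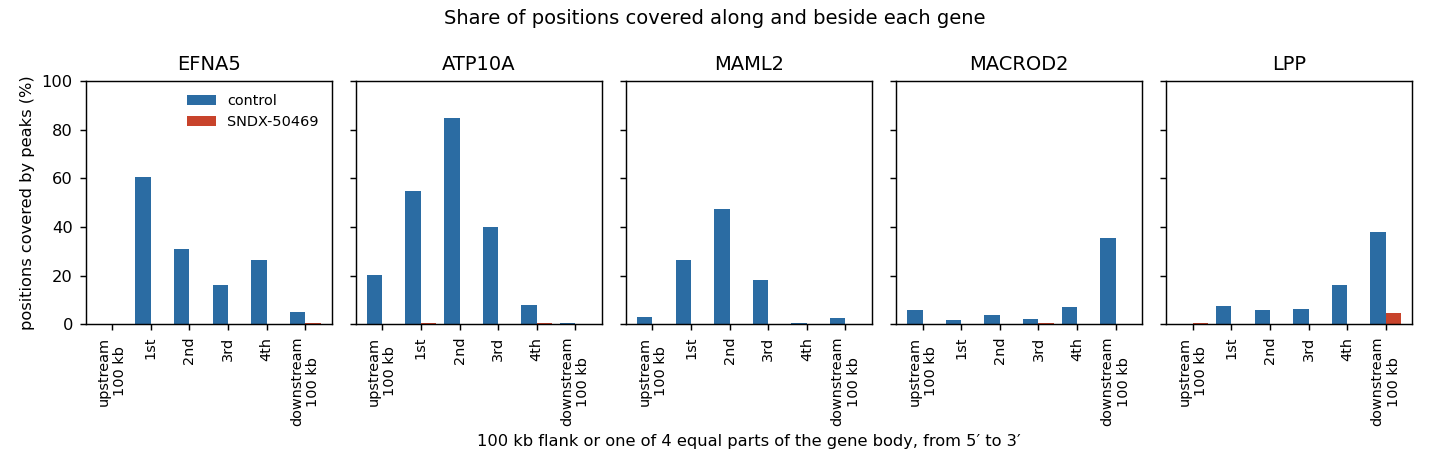
Percent of positions covered by peaks (vertical axis) in the 100 kb flanks beyond the 5 kb margin and in 4 equal parts of the gene body from 5′ to 3′ (horizontal axis), for control (blue) and SNDX-50469 (red) with 1 library each. The second part of ATP10A was 84.9% covered in control and 0% after treatment, and the highest bar after treatment, 4.5%, was the downstream flank of LPP.

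The place of the coverage along the gene thus differed among the 5. The 1470 protein-coding genes at least as long as ATP10A, with or without control coverage, had a median of 2.23% of the window covered. By this share ATP10A ranked 48 among them, EFNA5 95, MAML2 154, LPP 358 and MACROD2 597. In all, 40 of the 458 peaks were at least 2 kb wide and these held 241677 bp, or 57.7% of the covered length. By number they were 8.73% of the peaks of the 5 genes, beside 9.88% in the whole control list, and a selection by covered length favours wide peaks.

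All 5 promoters carried control H3K27Ac within 1 kb of the outermost 5′ end or an annotated start. The letters just before the starts are shown because peaks lay on or next to them in control. The sequences are the 250 bases before the outermost RefSeq start in the table of GRCh38.p14, 5′ to 3′ on the strand of the gene, with the motif matches on either strand in capitals. The motifs found there were GGGCGG, which is the GC box bound by SP factors, the CCAAT box, and GAGGAA, which is the core bound by PU.1. They lie at chr5:107670938-107671187 (EFNA5, minus), chr15:25863328-25863577 (ATP10A, minus), chr11:96343196-96343445 (MAML2, minus), chr20:13995266-13995515 (MACROD2, plus) and chr3:188152771-188153020 (LPP, plus).
EFNA5: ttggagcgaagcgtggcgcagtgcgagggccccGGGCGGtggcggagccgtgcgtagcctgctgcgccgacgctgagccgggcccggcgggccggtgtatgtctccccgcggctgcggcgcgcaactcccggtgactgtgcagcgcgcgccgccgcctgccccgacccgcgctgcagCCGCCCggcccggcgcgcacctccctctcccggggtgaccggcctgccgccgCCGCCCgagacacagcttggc
ATP10A: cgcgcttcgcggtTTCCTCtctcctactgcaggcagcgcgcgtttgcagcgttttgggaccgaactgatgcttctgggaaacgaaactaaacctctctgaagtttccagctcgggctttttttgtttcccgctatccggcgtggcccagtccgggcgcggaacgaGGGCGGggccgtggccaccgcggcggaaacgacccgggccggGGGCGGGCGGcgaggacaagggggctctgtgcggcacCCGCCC
MAML2: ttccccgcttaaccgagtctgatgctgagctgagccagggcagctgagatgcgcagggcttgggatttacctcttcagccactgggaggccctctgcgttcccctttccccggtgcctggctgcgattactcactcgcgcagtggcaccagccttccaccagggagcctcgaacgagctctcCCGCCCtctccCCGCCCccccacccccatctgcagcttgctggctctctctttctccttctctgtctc
MACROD2: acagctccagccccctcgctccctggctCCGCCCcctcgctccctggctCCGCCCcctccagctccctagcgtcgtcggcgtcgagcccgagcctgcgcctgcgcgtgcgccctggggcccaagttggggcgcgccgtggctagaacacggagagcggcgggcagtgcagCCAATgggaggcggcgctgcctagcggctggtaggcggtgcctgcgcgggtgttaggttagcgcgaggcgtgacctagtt
LPP: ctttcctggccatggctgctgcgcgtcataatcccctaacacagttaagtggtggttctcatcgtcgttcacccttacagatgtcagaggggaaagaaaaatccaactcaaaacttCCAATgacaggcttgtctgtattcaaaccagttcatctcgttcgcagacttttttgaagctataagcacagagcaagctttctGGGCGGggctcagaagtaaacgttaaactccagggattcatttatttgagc

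These promoters differed in composition. EFNA5 had 41 CpG in the 250 bases and 79.6% GC, ATP10A 31 CpG and 66.8%, MACROD2 29 CpG and 73.2%, MAML2 12 CpG and 63.6%, and LPP 8 CpG and 45.6%, beside medians of 16 CpG and 62% GC over the 22199 promoters of the table. The GC box was found in all 5, with 4 matches in ATP10A of which one pair overlaps, 3 in EFNA5, 2 in MAML2 and MACROD2 each and 1 in LPP. Of all promoters 53.7% had a GC box. A CCAAT box was found in MACROD2 and LPP and in 32.7% of all promoters, and the PU.1 core in ATP10A and in 23.7%. The RUNX core TGTGGT matched none of the 5 windows and was found in 9.36% of all promoters. The same held for the MYB core AACGG (18.4% of all promoters), for AGATAA as the site of GATA factors (7.09%), for TGANTCA as the site of AP-1 (5.36%) and for TATAAA as the TATA box (9%). For LPP these values cover only the outermost of its 7 starts. The next 2, under the same control peak, had 17 CpG and 66.4% GC and 29 CpG and 72.8% GC. The LPP starts farther inside had 1 to 5 CpG. In order from the 5′ end, LPP starts 2, 4, 5 and 6 had a PU.1 core and starts 4, 6 and 7 an AP-1 site. The windows of starts 4 and 5 overlap, and their PU.1 core is the same site.

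At the starts, the control peak was broadest at EFNA5, where the 11939 bp peak covered all 2000 positions within 1 kb. ATP10A had 1404 covered positions within 1 kb of its RefSeq start, LPP 1137, MAML2 1004 and MACROD2 770. At MAML2 the peak reached only to -4 bp, so the letters printed for MAML2 lay outside it except next to the start, and those of MACROD2 lay outside any peak. LPP has 7 RefSeq starts. The first 3 of them, at 188153021, 188153898 and 188154157, lay under a single 1606 bp peak with a fold of 4.23 and a −log10 q of 3.7, and of the other 4 one had a control peak within 1 kb. No SNDX-50469 peak lay within 10 kb of any of these starts other than the 181 bp peak of LPP, which was within 5 kb of the last start at 188584338. Of 15842 genes whose strand was known, 9649 outermost 5′ ends, or 60.9%, had a control peak within 1 kb, and 4877, or 30.8%, had a SNDX-50469 peak. Of the 9649, 4857 or 50.3% had none of that coverage kept, which is the background for the 5 of 5 that the selection fixed here.

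Coverage inside the genes also reached microRNAs that they host, which are shown because the hairpins of MIR4715 and MIR1260B lay under control peaks in full. MIR4715 is in ATP10A at chr15:25848747-25848825 on the strand of its host, under the 13989 bp peak that was the widest of ATP10A. MIR1260B is in MAML2 at chr11:96341438-96341526 on the opposite strand, under the peak at the start. MIR28, in LPP at chr3:188688781-188688866, was not under a peak, and its mature 3p arm was 666 bp from the nearest control peak. Mature sequences are from RefSeq, with the seed (bases 2 to 8) in capitals, and no seed is shared by any pair.
hsa-miR-4715-5p: aAGUUGGCugcaguuaaggugg
hsa-miR-4715-3p: gUGCCACCuuaacugcagccaau
hsa-miR-1260b: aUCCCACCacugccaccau
hsa-miR-28-3p: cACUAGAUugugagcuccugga

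Most of the control peaks of the 5 genes were weak. Of the 458 peaks, 403 or 88.0% had a fold under 3.46, the smallest fold in the SNDX-50469 list, against 83.2% of the whole control list. Folds are relative to the background of each library and are not scaled between libraries. The control list reached down to a −log10 p of 2.68 and the SNDX-50469 list to 3.93. At the common cutoff of 3.93, 67 of the 458 peaks were left, or 14.6%, against 18.5% of the whole control list. Of those 67, EFNA5 had 13, ATP10A 11, MAML2 15, MACROD2 13 and LPP 15. How far the higher cutoff of the SNDX-50469 list accounts for the missing peaks was not tested. With the common cutoff applied to both lists, ATP10A with 62948 bp, MAML2 with 57995 bp and EFNA5 with 46607 bp were still the first 3 genes with none kept. MACROD2 with 32657 bp and LPP with 27718 bp were no longer among the first 5, where ADAMTS14 with 39585 bp and DNMT3A with 36286 bp followed.

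**Figure D3:**
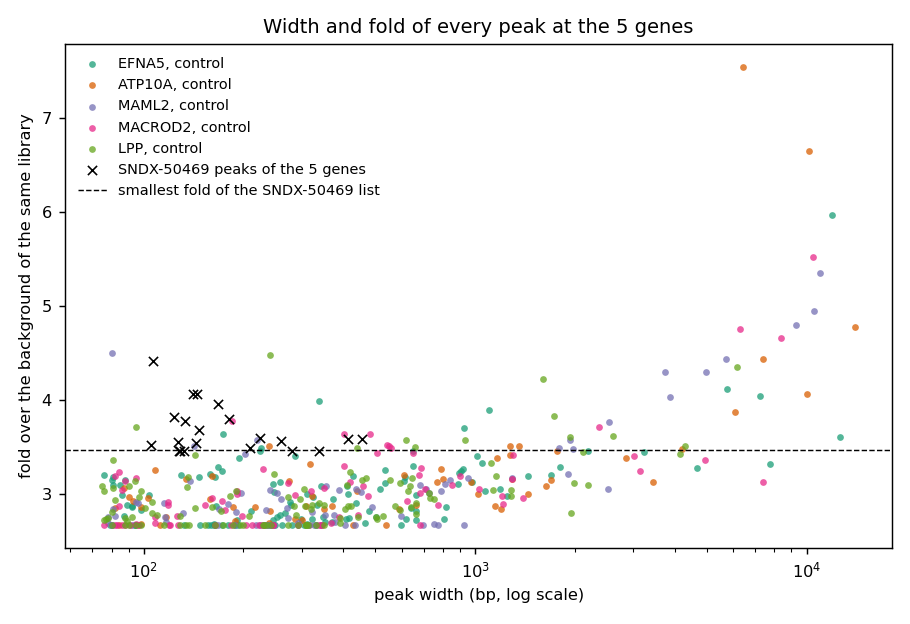
Width in bp (horizontal log axis) and fold over the background of the same library (vertical axis) of each of the 458 control peaks (coloured points, by gene) and 21 SNDX-50469 peaks (crosses) at the 5 genes; the dashed line is the smallest fold of the SNDX-50469 list, 3.46. Most control peaks lie below the line, the SNDX-50469 peaks are all under 500 bp wide, and folds over 5 occur only in control peaks of over 5 kb.

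The strong peaks were few, and elsewhere most peaks as strong shared some position with the SNDX-50469 list. At a −log10 q of 5 or more the 5 genes had 6 control peaks, namely 2 in ATP10A, 2 in MAML2 and 1 each in EFNA5 and MACROD2. In the rest of the control list 78.0% of 9269 such peaks were kept, meaning that they shared at least 1 bp with a SNDX-50469 peak (Wilson 95% interval 77.1 to 78.8, which covers counting error and not the dependence between adjacent peaks). When at least 50% of the peak had to be covered, the share was 23%. With any shared position, for a −log10 q of 3 to 5 the share was 27% (26.3 to 27.8) of 13070 peaks, for 2 to 3 it was 8.12% (7.86 to 8.39) of 40473, and under 2 it was 3.4% (3.32 to 3.49) of 182605. The 5 genes had 19, 64 and 369 peaks in these groups. By width, 66.7% (65.6 to 67.7) of the 7679 other control peaks of at least 5 kb were kept, and the 5 genes had 20 such peaks. That none of these peaks was kept at the 5 genes is what the selection required.

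**Figure D4:**
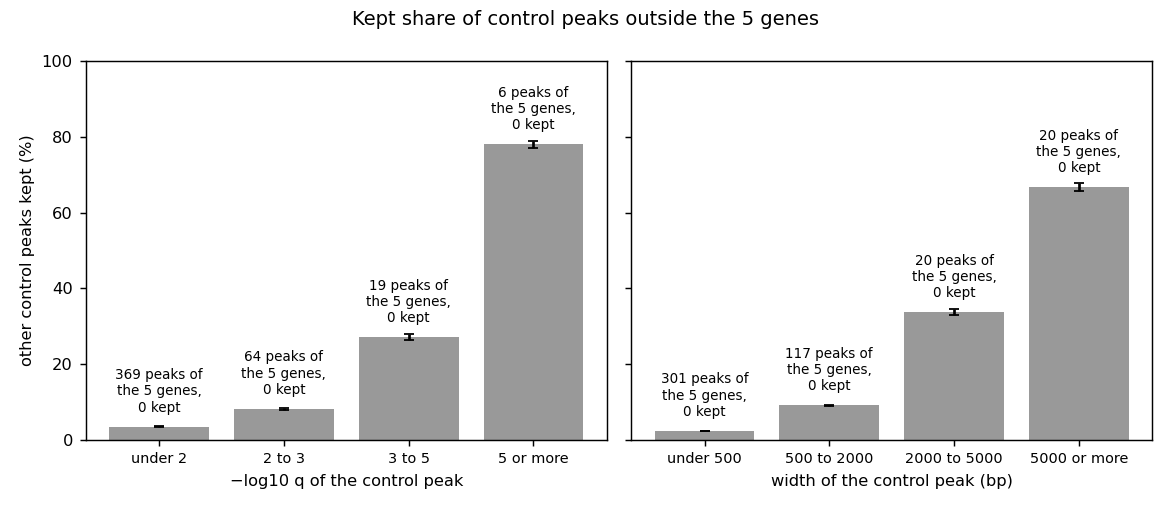
Percent of control peaks outside the 5 genes that were kept (vertical axis), by −log10 q of the control peak (left) and by its width in bp (right); bars are shares and error bars Wilson 95% intervals. The kept share was 3.4% under a −log10 q of 2 and 78.0% at 5 or more, and the number of peaks of the 5 genes in each group, none of them kept by selection, stands above each bar.

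Genes with as much control coverage usually kept a small share of it. At least 65975 bp of control covered length was found in 335 protein-coding genes, and in the 330 others the median kept share was 7.93%. The lowest of these were named after their values were seen. TEC, a tyrosine kinase of blood cells, kept 103 bp of 86981 bp (0.118%), and HDAC9, a class IIa deacetylase, kept 146 bp of 119668 bp (0.122%). In all, 23 of the 330 kept under 1%, so the 5 genes stood at the end of a continuous range. The 3 genes nearest to each of the 5 in control covered length, 15 in all, kept from 0.776% (RAB31) to 23% (PDE7A), with a median of 5.71%.

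**Figure D5:**
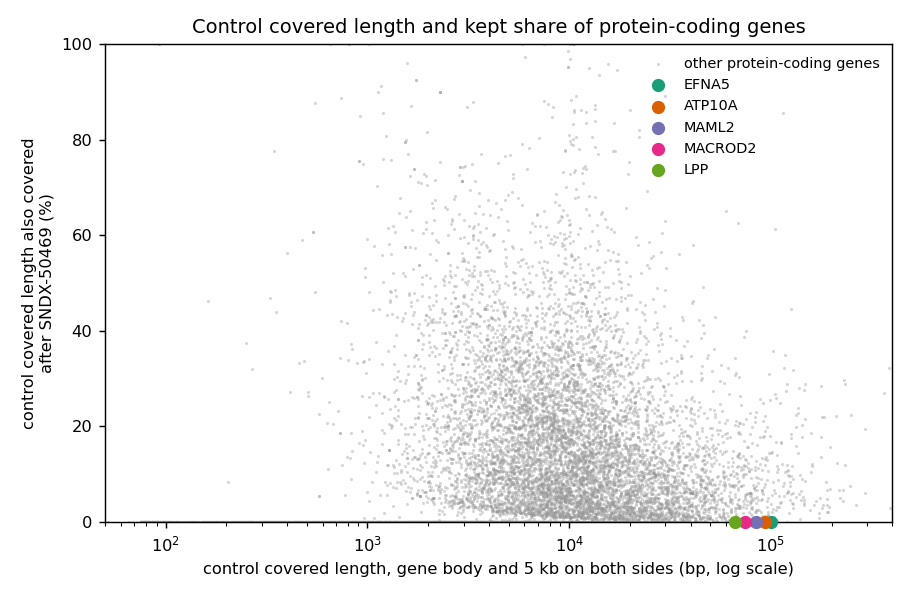
Control covered length of each protein-coding gene with a control peak, in bp on a log axis, against the percent of it also covered after SNDX-50469 (vertical axis); grey points are other genes and coloured points the 5 genes at 0%. Genes with 0% kept were 44.8% of all, and at the covered lengths of the 5 genes most grey points lie above 0%.

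The flanks were not part of the selection. They are the 100 kb beyond the 5 kb margin on each side, and summed over the 5 genes they held 109641 bp of control coverage, of which 4790 bp or 4.37% was kept. Summed over the 14515 protein-coding genes with control coverage in the flanks, 11.1% was kept. By gene, the kept share of the flanks was 0% for EFNA5, 0.243% for MACROD2, 0.393% for ATP10A, 2.09% for MAML2 and 11.9% for LPP, so the median of the 5 was 0.393%, beside a median of 5.25% over all these genes. None was kept in 4305 of them, or 29.7%, and among the 5 in 1, EFNA5. With flanks of 50 kb the summed share of the 5 was 0.697%. The flank peaks were not matched by strength with those of other genes. The highest −log10 q in the control flanks was 2.47 for EFNA5, 3.4 for MACROD2, 4.08 for MAML2, 4.75 for ATP10A and 10.6 for LPP. How far peak strength accounts for these kept shares was not tested.

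EFNA5 stood in a stretch with little H3K27Ac on either side. Its upstream flank had no control peak, the downstream flank had 7 that covered 5076 bp, and the nearest SNDX-50469 peak downstream, 54.4 kb away, was 382 bp wide and in no control peak. On the upstream side the nearest SNDX-50469 peak was 710 kb away. MAML2 was flanked by little coverage too, with 2801 bp upstream and 2665 bp downstream. The 114 bp kept upstream, 4.07% of the control coverage in that flank, lay in JRKL, next to CCDC82, whose body begins 9.58 kb from MAML2. Downstream, MTMR2, a phosphoinositide phosphatase gene, had 2748 bp of control coverage in its window and none kept.

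ATP10A and MACROD2 had more coverage next to them, and nearly none of it was kept. The upstream flank of ATP10A held 20077 bp in 32 control peaks, among them a 6982 bp peak with a −log10 q of 4.75 at -42.2 to -35.3 kb from the 5′ end, and 80 bp or 0.398% was kept, in ATP10A-DT, the noncoding gene that starts 0.181 kb away in the other direction. Its downstream flank had 280 bp. The downstream flank of MACROD2 held 35416 bp in 34 control peaks, which continued the block at the 3′ end of the gene, and 100 bp or 0.282% was kept. In the upstream flank of MACROD2, over SEL1L2, 5659 bp were covered and none was kept, while SEL1L2 as a whole kept 933 bp of 22541 bp.

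LPP was the exception. Its upstream flank had no control peak and 2 SNDX-50469 peaks of 122 and 206 bp, and its downstream flank held 37667 bp of control coverage, of which 4496 bp or 11.9% was kept. Nearly all of this was in 1 place. A 16104 bp control peak at chr3:188938532-188954635, with a fold of 7.49 and a −log10 q of 10.6, overlapped TPRG1-AS1, a noncoding gene 51 kb beyond the end of LPP, and under it lay 2 SNDX-50469 peaks of 4144 bp (fold 4.87, −log10 q 3.58) and 237 bp (fold 4.34, −log10 q 2.63). This control peak had the same −log10 q, to 3 digits, as the strongest peak of ATP10A, which was narrower, at 6444 bp. That the ATP10A peak was not kept is what the selection required.

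Relatives and partners of each gene were looked up from 5 lists of 93 genes in all. Of the 86 with a control peak, 42 or 48.8% had none of the coverage kept, near the 44.8% of all genes. Among ephrins and Eph receptors it was 16 of 18. The median control covered length of these 18 was 879 bp, beside 5834 bp over all protein-coding genes with a control peak. EPHB3 had 9044 bp, EFNA1 4367 bp and EFNA3 3273 bp with none kept, while EPHA1 kept 12.4% of 20192 bp and EPHB4 4.96% of 11886 bp. These 18 summed to 65314 bp, less than the 100428 bp of EFNA5, which was selected for its large control covered length.

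Among the P4-ATPases and their CDC50 subunits 4 of 14 had none kept. ATP8A2, with 166724 bp in control, kept 4.34%, ATP8B4 kept 22.4% of 133495 bp, and ATP10B, a close relative of ATP10A, kept 1.34% of 58096 bp. ATP10D had 5864 bp and kept none. In the Notch pathway it was 10 of 29. The other mastermind-like coactivators both kept some, MAML3 2.1% of 189624 bp and MAML1 4.91% of 32468 bp. RBPJ, the DNA-binding partner of MAML2, kept 10.5% of 157521 bp, the receptor NOTCH1 16% of 21895 bp, and the acetyltransferase gene EP300 17.8% of 12320 bp, while the ligand gene DLL4 kept none of 8536 bp.

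Among macrodomain proteins and ADP-ribose hydrolases 7 of 11 had none kept. MACROD1, the paralog of MACROD2, kept 14% of 47079 bp, and the histone variant gene MACROH2A1 7.68% of 64409 bp, while ADPRH, with 11494 bp, kept none. Among zyxin relatives and focal adhesion partners of LPP it was 5 of 14. ZYX kept 21.5% of 16380 bp, TRIP6 16.2% of 10904 bp, LIMD1 1.76% of 55359 bp and VCL, the vinculin gene, 0.928% of 45911 bp. In each of the 5 lists there were relatives that kept coverage, and ATP10B, MAML3, MACROD1 and LIMD1, each with broad control coverage of its own, were among them. The shares were small except for MACROD1, with 14%, beside 2.1% for MAML3, 1.76% for LIMD1 and 1.34% for ATP10B.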

How the data were processed

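Per the labels, H3K27Ac ChIPmentation libraries of MOLM13 cells were assigned to control or SNDX-50469, with 1 library each. The 2 input libraries were not analysed here. The submitters' processing notes name Trim Galore 0.6.5, Bowtie2 2.3.4.2, Picard 2.9.0, MACS2 2.1.2 and GRCh38, whereas the supplementary methods name TopHat2 and hg38. The calling options, and any use of input libraries in it, are not given in the sources used here. The authors called the peaks of each library separately. Each peak of the deposited lists carries a fold ratio over background, a −log10 p and a −log10 q. They also hold a score, which the authors' lists give as 10 times the −log10 q without decimals and which was not used. Read totals were not given, so the depth is unknown, and a peak below the cutoff of a list cannot be told from one without signal.

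Python 3.11.15 with numpy 2.4.6, pandas 2.3.3, scipy 1.17.1 and matplotlib 3.10.9 was used. Gene positions, starts, promoters and microRNAs came from RefSeq tables of GRCh38.p14, the build of hg38, with the strand from the promoter table. Exons and introns were not used here. Covered length, kept positions, joined clusters (gaps of up to 12.5 kb) and flanks were computed from the intervals, and the interval code was checked on simulated data. All 93 listed relatives matched by symbol. The 5 genes and the lists were chosen with earlier results of these data known. Genes named are the 5, the 5 next by the same rule, the 3 nearest to each in covered length, the neighbours in the flanks and the listed relatives; TEC, HDAC9 and DNMT3A were named after their values were seen. No test was made, as each condition has 1 library. The alternatives changed the window, the cutoffs, the definition of kept and the gene set.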

Additional observations from a re-analysis of the deposited data

How the results depend on the processing

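The selection of the 5 genes did not change with the gene body alone, but it depended on the window and the cutoffs. None of the control covered length was kept in 5 of 5 genes over the body alone, in 2 with 50 kb on both sides and in 1 with 100 kb, and 2 had no SNDX-50469 peak at all. The summed control covered length of 419174 bp became 413563 bp for the body alone, 489703 bp with 50 kb and 528815 bp with 100 kb on both sides. It was 227925 bp at the common cutoff on −log10 p, 263295 bp for a −log10 q of at least 2, 60467 bp for a −log10 q of at least 5 and 353131 bp for peaks of at least 500 bp. The 6998 genes with none kept, 44.8% of the 15634 with a control peak, became 18511 of 32626 (56.7%) over all genes of the table. At the common cutoff they were 4424 of 12555 (35.2%). Under the other 4 alternatives the number stayed within 1.5 times. Covered length within 5 kb of the outermost 5′ ends, 20392 bp in all, was 6308 bp within 1 kb and 32430 bp within 10 kb. The kept share of the flanks, 4.37%, was 0.697% over 50 kb, 4.49% over 200 kb, 4.39% as a share of control peaks and 6.76% at the common cutoff. The kept share of other control peaks at a −log10 q of 5 or more, 78.0%, was 23% when 50% of the peak had to be covered, and it was 66.7% for peaks of at least 5 kb. Of the 86 listed relatives with a control peak 42 had none kept, against 19 at the common cutoff. The number of relatives with a control peak left at that cutoff is not given here. The fall from 42 to 19 is therefore not a change in share. The cause of these changes was not tested beyond the construction of each alternative. No paired analysis was possible because only 1 control and 1 treated library were measured.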
